A study of Mus musculus with 27 samples.

Results

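Organoids grown from the liver of healthy mice that had received mineral oil, the vehicle in which carbon tetrachloride (CCl4) is given, were compared with untreated organoids grown from healthy mouse liver. Neither set received CCl4 or TGF-β1. The comparison holds 6 libraries of the 27 in the series, 3 from mineral oil mice and 3 untreated, chosen by their labels alone. The mineral oil libraries come from an experiment that also holds organoids of CCl4 mice, a model of toxic liver fibrosis, with and without an extract of the brown seaweed Sargassum japonica. The untreated libraries come from another experiment, which holds TGF-β1 organoids (transforming growth factor beta 1 was added to the culture) with and without the same extract. Organoids of both sets were expanded in Matrigel, a basement membrane gel, and then differentiated for 4 to 5 days, per the labels' protocols. The labels name no strain, age or sex, no length of the mineral oil treatment, and no animal or culture behind a numbered library, so the p-values rest on how far the libraries of a set spread, and that spread may be technical. The vehicle, the mice, the culture line and the experiment change together between the 2 sets and cannot be told apart.

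Liver organoids of this kind are usually grown from biliary epithelial cells, which line the bile ducts. In expansion medium, Wnt and R-spondin signals keep such cells dividing and support the receptor Lgr5, a marker of epithelial stem cells. Differentiation medium withdraws growth signals, upon which the cells leave the cell cycle and raise part of the hepatocyte programme. Hepatocytes are the main cell type of liver and make albumin, lipoproteins and bile acids.

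The 6 libraries held 44509074 to 54845131 reads. All levels below are CPM, read counts scaled to an effective library size that was computed over these 6 libraries, without a prior count, and each list of 3 values runs over replicates 1, 2 and 3 in that order. One library of each set stood apart. Untreated libraries 1 and 2 differed by a median of 0.084 in log2 CPM per gene, whereas untreated library 3 differed from them by 0.28 and 0.27. Mineral oil libraries 2 and 3 differed by 0.13, and mineral oil library 1 differed from them by 0.40 and 0.43. Between the sets the median differences ran from 0.42 to 0.72, and the smallest of them, 0.42 and 0.43, lay between untreated library 3 and mineral oil libraries 3 and 2. Untreated library 3 differed from mineral oil library 1 by 0.63. Even in the closest pair of replicates the variance was 7.28 times that of counting alone, so no pair looked like a repeat deposit of one library, which does not show that the cultures were separate. Results are therefore given over all 6 libraries and again without untreated library 3 and mineral oil library 1. The second fit holds 2 libraries of each set. The libraries left out were picked from these same data for lying far from their replicates. Leaving them out therefore lowers the spread and raises the calls by itself, and the second counts are no independent support. The median standard error was 0.22 over 6 libraries and 0.098 in the second fit.

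**Figure D1:**
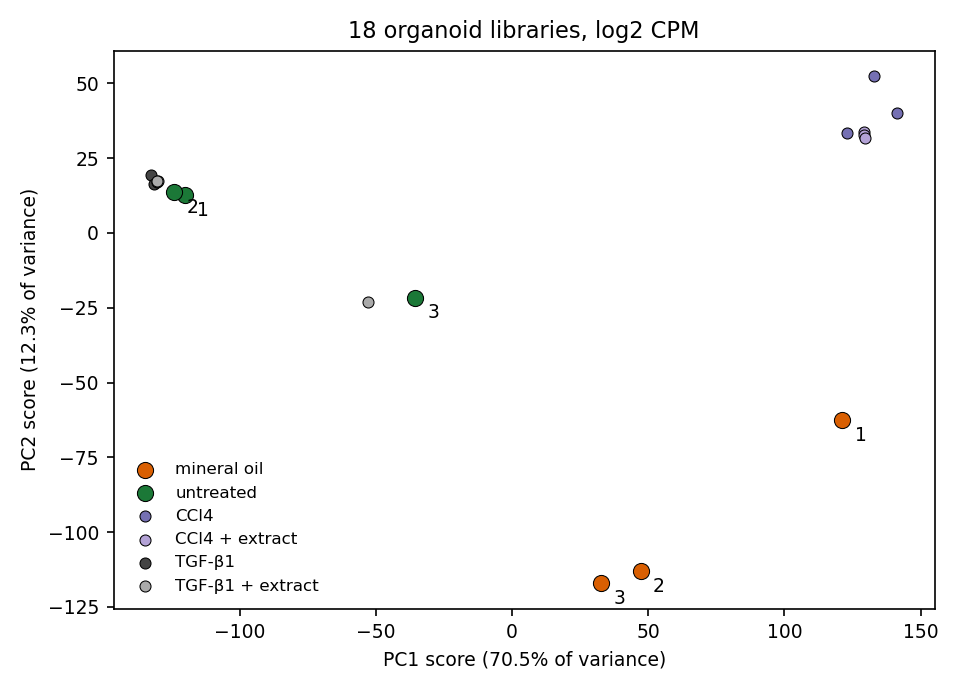
Principal components of all 18 organoid libraries from log2 CPM, with PC1 on the x axis (70.5% of the variance) and PC2 on the y axis (12.3%), as scores without unit. Large points are the mineral oil and untreated libraries, numbered by replicate. On PC1 the untreated libraries lie at -120.13, -124.03 and -35.69 and the mineral oil libraries at 121.31, 47.21 and 32.83.

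Of 14259 genes tested, 4779 (33.5%) differed between the sets at a limma adjusted p under 0.05. Of these, 2426 (17% of those tested) were higher and 2353 (16.5%) lower in mineral oil organoids. Differences were large: the median absolute log2 fold change over all genes tested was 0.51, 2546 called genes differed by 1 or more on the log2 scale, and 812 by 3 or more, of which 565 were higher and 247 lower in mineral oil organoids. The 3 values of one set did not overlap the 3 of the other at 7926 genes (55.6% of those tested). Without the 2 libraries that stood apart, 9761 of 14421 genes were called (67.7%), 4940 higher (34.3%) and 4821 lower (33.4%). With untreated 1, untreated 2, mineral oil 2 or mineral oil 3 left out instead, the calls fell to 762, 712, 1103 and 1590 higher and to 393, 317, 839 and 1470 lower. Without untreated 3 alone they were 2889 higher and 2366 lower, and without mineral oil 1 alone 3078 and 2871. The counts of list members with single libraries left out, given below, are to be read beside these totals over all genes. List counts over 6 libraries are to be read beside 17% higher and 16.5% lower. Those without the 2 libraries that stood apart are to be read beside 34.3% and 33.4%. The balance between directions moved with the scaling: 50.8% of called genes were higher in mineral oil organoids here, 33.4% when libraries were scaled by their totals alone, which shifted the median of all genes to -0.19 from -0.02, and 33.2% with the authors' own effective library sizes.

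Other comparisons of the same libraries give a scale for these counts. In a model of all 18 organoid libraries and their 6 groups, mineral oil and untreated organoids differed at 7975 of 15560 genes (51.3%). In that fit CCl4 and mineral oil organoids, which belong to one experiment, differed at 6245 genes (40.1%), and TGF-β1 and untreated organoids, which belong to the other, at 22 (0.141%), with 5 higher and 17 lower under TGF-β1. The last count was 1, 1 and 3 without TGF-β1 library 1, 2 or 3, 9, 17 and 12 without untreated library 1, 2 or 3, and 58 in a fit of its own 6 libraries. These counts share the mineral oil or the untreated libraries with the main comparison. The comparison of the 2 control sets thus gave more called genes than either treatment gave within its experiment. Whether the numbers of differing genes themselves differ was not tested.

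Both sets carried the genes of biliary epithelium. Epcam, an adhesion protein of epithelial cells, measured 1385, 661 and 582 CPM in mineral oil and 619.5, 575 and 566 CPM in untreated libraries and did not pass the test (adjusted p = 0.313). Krt19, a keratin of bile ducts, measured 4482, 5138 and 4205 CPM in mineral oil and 1927, 1861 and 4805 CPM in untreated libraries. Sox9, a factor of ducts and progenitors, measured 31.5, 72.00 and 77.2 CPM in mineral oil and 60.8, 53.4 and 37.9 CPM in untreated libraries. For Krt19 and Sox9 the groups overlapped: untreated library 3 lay among the mineral oil libraries for the former, and mineral oil library 1 was the lowest for the latter. Of 21 tested biliary and progenitor genes, 5 were higher (23.8%) and 3 lower (14.3%) in mineral oil organoids, near the 17% and 16.5% of all genes tested. Without the 2 libraries that stood apart the counts were 14 and 3, beside 34.3% and 33.4% of all genes in that fit. The number higher ran from 2 (without untreated 1 or untreated 2) to 8 (without untreated 3) as single libraries were left out. Among the 5 was Cldn4, a tight junction claudin, with 697, 576 and 538 CPM in mineral oil and 132, 118 and 177 CPM in untreated libraries (log2 fold change 2.10 ± 0.19 SE, adjusted p = 0.00221). Cd24a, a surface protein of progenitor cells, measured 1268, 1538 and 1525 CPM in mineral oil and 596, 581 and 598 CPM in untreated libraries (log2 fold change 1.28 ± 0.14 SE, adjusted p = 0.00358). The mucin Muc1 ran the other way, with 10.6, 13.8 and 28.9 CPM in mineral oil and 942, 889 and 163 CPM in untreated libraries (log2 fold change -4.99 ± 0.77 SE, adjusted p = 0.00907), and its lowest untreated value was that of library 3.

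Most markers of other liver cell types had few or no reads, with exceptions among the macrophage genes. Of 18 macrophage and Kupffer cell genes, 13 had no read in any of the 6 libraries, among them Adgre1, Clec4f and C1qa, and the summed level of the list ran from 128 to 314 CPM in mineral oil and from 445 to 901 CPM in untreated libraries, mostly from Cd14 and Csf1r. Of the 4 macrophage genes tested, 1 was higher and 1 lower (2 and 2 without the 2 libraries that stood apart). Csf1r, the receptor of macrophage growth factor, measured 20.6, 102 and 108 CPM in mineral oil and 24.01, 24.7 and 94.4 CPM in untreated libraries and did not pass (log2 fold change 0.67 ± 0.84 SE, adjusted p = 0.556). Its sets overlapped only through mineral oil library 1, while untreated library 3 lay near mineral oil libraries 2 and 3. The call without the 2 libraries that stood apart (log2 fold change 2.11, adjusted p = 2.91e-06) thus follows from leaving them out. The member that was higher over 6 libraries is Cd68, a lysosomal protein, with 7.81, 16.4 and 13.3 CPM in mineral oil and 2.68, 2.48 and 6.21 CPM in untreated libraries (log2 fold change 1.78 ± 0.45 SE, adjusted p = 0.032). Of 13 endothelial genes, 12 had a mean under 1 CPM, with sums of 2.11 to 4.54 and 1.16 to 7.34 CPM. Of 17 lymphocyte, neutrophil and erythroid genes, 15 had a mean under 1 CPM and 8 had no read, with sums of 2.11 to 4.84 CPM in mineral oil and 9.13 to 59.9 CPM in untreated libraries, from S100a8 and S100a9. Of 20 stellate cell and fibroblast genes, 17 had a mean under 1 CPM, and the sum, 1347 to 1673 and 880.0 to 2082 CPM, was mostly S100a6, which epithelial cells also express. Des, the intermediate filament of stellate and muscle cells, had 8.25 CPM in untreated library 1 and 0.043 and 0 CPM in the other untreated libraries. The member that was lower is Cd14, the lipopolysaccharide co-receptor, with 98.3, 154 and 192 CPM in mineral oil and 872, 819.9 and 343 CPM in untreated libraries (log2 fold change -2.13 ± 0.43 SE, adjusted p = 0.0176). S100a8, a calprotectin subunit, measured 2.18, 1.16 and 1.28 CPM in mineral oil and 43.7, 34.8 and 7.34 CPM in untreated libraries (log2 fold change -3.88 ± 0.71 SE, adjusted p = 0.0143). The calls of Cd14 and S100a8 were lost without untreated 1, untreated 2 or mineral oil 2, and that of Cd68 without these or mineral oil 3. The part of other cell types in the results below was not tested. In bulk RNA, fewer cells of a type and less RNA per cell cannot be told apart.

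**Figure D2:**
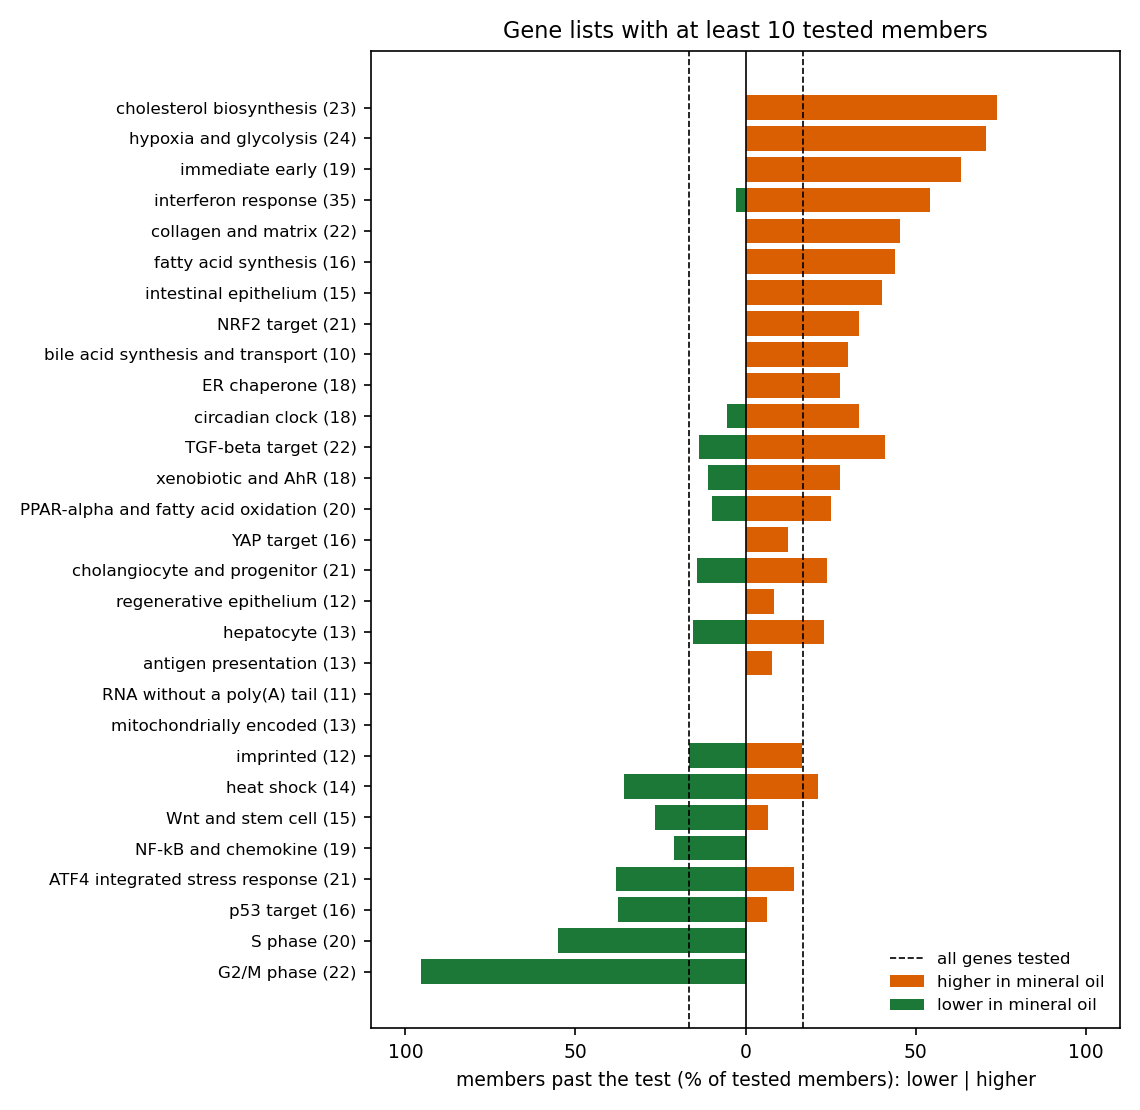
Share of the tested members of each gene list, with the number tested in brackets, that were higher (right, orange) or lower (left, green) in mineral oil organoids over all 6 libraries, as percent of tested members. Dashed lines mark the same shares over all genes tested, 17% higher and 16.5% lower; cholesterol biosynthesis reached 73.9% higher and the G2/M list 95.5% lower.

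Genes of cell division were lower in mineral oil organoids. Of 22 genes of the G2 and M phases, 21 were lower and 0 higher, with a median log2 fold change of -2.62 against -0.02 over all genes tested, and all 22 were lower without the 2 libraries that stood apart. The number lower was 2 (without untreated 2) to 21 (without mineral oil 1 or mineral oil 3) with single libraries left out. In the fit without untreated 2, only 317 of all 14657 genes tested were called lower, so calls fell in general there. Mki67, the marker of cycling cells, measured 83.6, 100.2 and 139 CPM in untreated and 5.98, 17.9 and 21.9 CPM in mineral oil libraries (log2 fold change -2.98 ± 0.51 SE, adjusted p = 0.0118), and its call was lost without untreated library 2 (adjusted p = 0.0557). Cdk1, the kinase that drives entry into mitosis, measured 24.9, 25.7 and 33.6 CPM in untreated and 4.44, 6.94 and 8.08 CPM in mineral oil libraries (log2 fold change -2.14 ± 0.26 SE, adjusted p = 0.00518). Birc5, a mitotic protein and inhibitor of apoptosis, measured 10.1, 11.3 and 16.4 CPM in untreated and 2.06, 2.15 and 1.91 CPM in mineral oil libraries (log2 fold change -2.57 ± 0.24 SE, adjusted p = 0.00247). For all 3 genes every untreated library lay above every mineral oil library. Cdk1 and Birc5 were named for their small p, and the sets did not overlap at 55.6% of all genes tested. Of 20 S phase genes, 11 were lower and 0 higher (median -1.29), and 14 lower with 1 higher without the 2 libraries. Over the 6 fits that each lacked a library, the number lower lay between 3 (without untreated 1 or untreated 2) and 13 (without mineral oil 1). Mcm7, a subunit of the replicative helicase, measured 47.96, 56.3 and 57.9 CPM in untreated and 15.2, 20.8 and 22.3 CPM in mineral oil libraries (log2 fold change -1.49 ± 0.17 SE, adjusted p = 0.00457). Cdc45, which joins the helicase at the fork, measured 5.04, 4.96 and 6.88 CPM in untreated and 0.606, 1.02 and 1.21 CPM in mineral oil libraries (log2 fold change -2.56 ± 0.34 SE, adjusted p = 0.0061). The cell cycle inhibitor gene Cdkn1a, which encodes p21, was higher in mineral oil organoids and measured 851, 450.3 and 342 CPM in mineral oil and 48.4, 46.4 and 80.9 CPM in untreated libraries (log2 fold change 3.16 ± 0.39 SE, adjusted p = 0.00516). Cdkn2a, which encodes p16 and p19Arf, measured 31.2, 67.6 and 57.2 CPM in mineral oil and 8.53, 9.59 and 22.8 CPM in untreated libraries (log2 fold change 2.00 ± 0.47 SE, adjusted p = 0.025), a call lost without untreated 1, untreated 2, mineral oil 2 or mineral oil 3.

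Promoters of mitotic genes often carry the letters TTTGAA, the core of the cell cycle genes homology region, where a repressor complex binds in resting cells. The bases before the start of Cdk1 are shown because this gene had the smallest p of the listed members that carry these letters and have a single annotated start. The window is chr10:69352913-69353162 of GRCm38.p6, minus strand, from RefSeq, and capitals mark TTTGAA on either strand.
Cdk1: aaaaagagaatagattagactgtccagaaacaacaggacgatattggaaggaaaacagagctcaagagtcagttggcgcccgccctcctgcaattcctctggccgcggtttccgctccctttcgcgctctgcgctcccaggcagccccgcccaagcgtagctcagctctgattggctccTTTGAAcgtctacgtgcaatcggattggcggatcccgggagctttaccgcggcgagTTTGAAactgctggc
The letters occurred 2 times in it, the nearer one starting 15 bases before the start, and shared no base with the other motifs searched. Among the G2 and M phase genes, 8 of 19 with a window of 250 bases (42.1%) held TTTGAA on either strand, against 18.3% of 27025 genes with such windows. The letters CCAAT, to which the factor NF-Y binds, were in 16 of the 19 (84.2%) against 37.5% of all genes.

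Lgr5 had no read in any mineral oil library. It measured 18.5, 16.7 and 2.15 CPM in the untreated libraries, so that its mean was at least 190.4-fold lower in mineral oil organoids when 3 reads per library are taken as the floor (adjusted p = 0.00407). The gene lies on chromosome 10, 115450314 to 115587780 (GRCm38), and the untreated library that stood apart held the least. Organoids of CCl4 mice, scaled with all 18 libraries, held 5.13 to 12.7 CPM and TGF-β1 organoids 8.29 to 9.32 CPM, so within the experiment of the mineral oil libraries the gene was read in the CCl4 libraries. Notum, a secreted Wnt inhibitor and itself a Wnt target, measured 11.7, 13.9 and 11.9 CPM in untreated and 0, 0.181 and 0.269 CPM in mineral oil libraries (adjusted p = 0.00483). Smoc2, a matricellular protein of stem cells, had no read in mineral oil organoids and 2.12, 2.11 and 0.306 CPM in untreated ones (adjusted p = 0.0106, lost without untreated 1 or 2). Of 15 tested Wnt and stem cell genes, 4 were lower (26.7%) and 1 higher (6.67%), beside 16.5% and 17% of all genes tested. Without the 2 libraries that stood apart the counts were 8 and 2 of 16, beside 33.4% and 34.3% of all genes. Single libraries moved the number lower between 2 (without untreated 1 or untreated 2) and 6 (without untreated 3). The one that was higher is Olfm4, a secreted protein of intestinal crypts, with 117, 58.1 and 29.3 CPM in mineral oil and 10.2, 9.49 and 1.16 CPM in untreated libraries (log2 fold change 3.58 ± 0.96 SE, adjusted p = 0.0356), a call held in 1 of 6 fits with a library left out. Axin2, the feedback inhibitor that most Wnt responses include, measured 4.74, 8.71 and 9.99 CPM in mineral oil and 4.61, 4.29 and 4.51 CPM in untreated libraries and did not pass over 6 libraries (adjusted p = 0.116). It was called higher in mineral oil organoids without mineral oil library 1 (log2 fold change 1.07), without both libraries that stood apart (1.07, adjusted p = 0.000933) and over 18 libraries (0.74, adjusted p = 0.0195). The ubiquitin ligase Rnf43 did not pass, with 69.5, 79.9 and 74.2 CPM in mineral oil and 76.8, 68.8 and 62.04 CPM in untreated libraries (adjusted p = 0.463).

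Genes of cholesterol synthesis were higher in mineral oil organoids. Of 23 genes of the pathway and its regulators, 17 were higher and 0 lower, with a median log2 fold change of 1.02, and all 23 were higher without the 2 libraries that stood apart. Leaving out each library in turn gave 12 (without untreated 1 or untreated 2) to 21 (without mineral oil 1) higher members. Hmgcs1, which makes the precursor of mevalonate, measured 1235, 1468 and 1291 CPM in mineral oil and 388, 403 and 395 CPM in untreated libraries (log2 fold change 1.75 ± 0.12 SE, adjusted p = 0.0013). Pmvk, a kinase further along the mevalonate branch, measured 102, 83.5 and 83.8 CPM in mineral oil and 27.6, 29.1 and 27.1 CPM in untreated libraries (log2 fold change 1.68 ± 0.11 SE, adjusted p = 0.00113). Sc5d, a sterol desaturase near the end of the pathway, measured 368, 309 and 295 CPM in mineral oil and 112, 109.6 and 116 CPM in untreated libraries (log2 fold change 1.52 ± 0.11 SE, adjusted p = 0.0014). In each of the 3, replicates of a set lay close together and the sets were far apart, also in the libraries that stood apart by all genes. These 3 had the smallest p of the list, a choice that favours such genes, so this does not describe the other members. Of 16 fatty acid synthesis genes, 7 were higher and 0 lower (median 0.56), and 11 and 2 without the 2 libraries. The number higher ran from 2 (without untreated 2) to 9 (without mineral oil 1) as single libraries were left out. The desaturase Scd1 measured 381, 467 and 594 CPM in mineral oil and 21.9, 18.2 and 35.2 CPM in untreated libraries (log2 fold change 4.29 ± 0.29 SE, adjusted p = 0.00115). Fads1, which makes polyunsaturated fatty acids, measured 127, 132 and 159 CPM in mineral oil and 19.2, 18.2 and 18.2 CPM in untreated libraries (log2 fold change 2.90 ± 0.11 SE, adjusted p = 0.000354). Fasn, the fatty acid synthase itself, had a log2 fold change of 0.049 ± 0.27 SE and did not pass (adjusted p = 0.899). With libraries scaled by their totals alone, 4 of the fatty acid genes and 16 of the cholesterol genes were higher.

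Genes of sterol synthesis are switched on by SREBP factors, which act beside NF-Y at CCAAT letters. The window before the start of Hmgcs1 is shown as that of the member with the smallest p among those with CCAAT on either strand (marked in capitals, as CCAAT or its reverse complement) and a single annotated start, at chr13:119690101-119690350 of GRCm38.p6, plus strand, from RefSeq.
Hmgcs1: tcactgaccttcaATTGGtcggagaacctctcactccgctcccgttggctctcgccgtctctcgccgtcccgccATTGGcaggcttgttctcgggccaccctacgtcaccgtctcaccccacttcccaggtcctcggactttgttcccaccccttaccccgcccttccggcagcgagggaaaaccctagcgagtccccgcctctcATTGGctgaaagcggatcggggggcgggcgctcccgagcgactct
It held 3 matches, the nearest starting 45 bases before the start. All 15 members of the list with a window held CCAAT (100%), against 37.5% of all genes.

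Hypoxia and glycolysis genes were higher as well. Of 24, 17 were higher and 0 lower (median 1.03), and 23 were higher without the 2 libraries that stood apart. The number higher was 5 (without untreated 2) to 22 (without mineral oil 1) with single libraries left out. Vegfa, the growth factor of blood vessels, measured 614, 1236 and 1168 CPM in mineral oil and 145, 141 and 167 CPM in untreated libraries (log2 fold change 2.67 ± 0.28 SE, adjusted p = 0.00358). Ero1a, an oxidase of the endoplasmic reticulum, measured 636, 874 and 856 CPM in mineral oil and 213, 221 and 135 CPM in untreated libraries (log2 fold change 2.08 ± 0.24 SE, adjusted p = 0.00428). The phosphofructokinase Pfkp measured 587, 551 and 461 CPM in mineral oil and 223, 224 and 177 CPM in untreated libraries (log2 fold change 1.36 ± 0.15 SE, adjusted p = 0.00376). Mineral oil library 1 had the lowest Vegfa and Ero1a of its set and still lay above every untreated library. Levels in CCl4 organoids, scaled with all 18 libraries, were 245 to 569 CPM for Vegfa and 241 to 373 CPM for Ero1a, and in TGF-β1 organoids 152 to 169 and 138 to 171 CPM. The letters ACGTG are the core of the site that hypoxia-inducible factors bind, and Ero1a is shown as the member with the smallest p that carries them and has a single annotated start (chr14:45318573-45318822 of GRCm38.p6, minus strand, from RefSeq, with ACGTG on either strand in capitals).
Ero1a: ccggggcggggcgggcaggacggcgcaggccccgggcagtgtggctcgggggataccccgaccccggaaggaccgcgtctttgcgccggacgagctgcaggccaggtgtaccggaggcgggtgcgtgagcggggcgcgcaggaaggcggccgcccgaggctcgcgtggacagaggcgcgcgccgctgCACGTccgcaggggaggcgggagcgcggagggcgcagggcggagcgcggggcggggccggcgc
The window held 1 match, 63 bases before the start. Of the 23 members with a window, 15 held ACGTG (65.2%), against 18.5% of all genes.

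Of 35 tested interferon response genes, 19 were higher (54.3%) and 1 lower (2.86%) in mineral oil organoids, beside 17% and 16.5% of all genes tested. The median log2 fold change was 1.498, and 26 were higher and 1 lower without the 2 libraries that stood apart. Over the 6 fits that each lacked a library, the number higher lay between 2 (without untreated 1) and 22 (without untreated 3). Oasl2, an antiviral protein related to the oligoadenylate synthetases, measured 80.8, 26.1 and 57.5 CPM in mineral oil and 2.68, 2.78 and 5.74 CPM in untreated libraries (log2 fold change 3.81 ± 0.50 SE, adjusted p = 0.00616). Rigi, a sensor of viral RNA, measured 48.6, 36.8 and 53.6 CPM in mineral oil and 22.4, 22.6 and 20.3 CPM in untreated libraries (log2 fold change 1.07 ± 0.16 SE, adjusted p = 0.00842). Dhx58, its relative, measured 13.5, 9.23 and 15.98 CPM in mineral oil and 4.37, 4.68 and 4.24 CPM in untreated libraries (log2 fold change 1.498 ± 0.24 SE, adjusted p = 0.00986), a call lost without untreated library 1. Ifit1, one of the strongest interferon targets, measured 54.6, 31.5 and 55.2 CPM in mineral oil and 6.92, 3.23 and 21.7 CPM in untreated libraries (log2 fold change 2.53 ± 0.69 SE, adjusted p = 0.0377), and its call held in 1 of 6 fits with a library left out. For Ifit1, untreated library 3 stood between the other untreated libraries and the mineral oil ones. The member that was lower is Gbp2, a GTPase induced mainly by interferon gamma, with 1.13, 0.5898 and 0.314 CPM in mineral oil and 8.47, 9.16 and 2.93 CPM in untreated libraries (log2 fold change -3.26 ± 0.63 SE, adjusted p = 0.0157). In CCl4 organoids Oasl2 measured 0.633 to 1.24 CPM and in TGF-β1 organoids 1.72 to 2.26 CPM, so its level in the mineral oil libraries was above all of these. Interferon genes are bound by STAT and IRF factors at sites with the core GAAANNGAAA, where N is any base. Stat2, a subunit of the factor that binds there, measured 78.9, 62.7 and 88.4 CPM in mineral oil and 44.1, 38.4 and 44.4 CPM in untreated libraries (log2 fold change 0.84 ± 0.15 SE, adjusted p = 0.0127) and is shown as the called member with the smallest p that carries the letters and has a single annotated start (chr10:128270248-128270497 of GRCm38.p6, plus strand, from RefSeq, match in capitals).
Stat2: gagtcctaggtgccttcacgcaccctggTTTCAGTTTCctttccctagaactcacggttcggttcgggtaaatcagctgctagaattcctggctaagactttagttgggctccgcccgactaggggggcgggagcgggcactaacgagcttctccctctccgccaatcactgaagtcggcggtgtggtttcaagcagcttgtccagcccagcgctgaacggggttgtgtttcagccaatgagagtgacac
The single match starts 222 bases before the start. Of 26 members with a window, 15 held these letters on either strand (57.7%), against 3.46% of all genes.

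The count of inflammatory genes that were lower in mineral oil organoids turned on which libraries were used. Of 19 NF-kB targets and chemokines, 4 were lower (21.1%, near the 16.5% of all genes tested) and 0 higher (median -1.68). Without the 2 libraries that stood apart 18 of 20 were lower, beside 33.4% of all genes in that fit. Single libraries moved the number lower between 0 (without untreated 1, untreated 2 or mineral oil 2) and 14 (without untreated 3). The neutrophil chemokine Cxcl1 measured 373, 362 and 71.5 CPM in untreated and 16.3, 14.4 and 21.8 CPM in mineral oil libraries (log2 fold change -3.62 ± 0.66 SE, adjusted p = 0.0141). Csf1, the growth factor of macrophages, measured 244, 242 and 38.3 CPM in untreated and 6.399, 8.55 and 11.6 CPM in mineral oil libraries (log2 fold change -3.93 ± 0.76 SE, adjusted p = 0.0157). Csf3, the growth factor of neutrophils, measured 133, 139 and 25.01 CPM in untreated and 0.202, 0.318 and 0.135 CPM in mineral oil libraries (log2 fold change -8.28 ± 0.73 SE, adjusted p = 0.0022). Complement C3 measured 2149, 2028 and 59.8 CPM in untreated and 3.35, 3.99 and 4.82 CPM in mineral oil libraries (log2 fold change -7.30 ± 1.40 SE, adjusted p = 0.0157). In each of these, untreated library 3 was the lowest of its set and still above every mineral oil library. The calls of Cxcl1, Csf1 and C3 were lost without untreated 1, untreated 2 or mineral oil 2, and that of Csf3 held in all 6 such fits.

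Targets of the TGF-beta superfamily were found in both directions. Of 22 tested genes, 9 were higher (40.9%) and 3 lower (13.6%), beside 17% and 16.5% of all genes tested (median 0.64). Without the 2 libraries that stood apart the counts were 15 and 6 of 23. Leaving out each library in turn gave 6 (without untreated 1 or untreated 2) to 10 (without untreated 3 or mineral oil 1) higher members. The 3 with the smallest p are responders to bone morphogenetic proteins: Smad6, an inhibitory SMAD, measured 51.6, 58.9 and 52.6 CPM in mineral oil and 13.5, 12.4 and 14.3 CPM in untreated libraries (log2 fold change 2.02 ± 0.11 SE, adjusted p = 0.000756). Id1, an inhibitor of differentiation factors, measured 635, 494 and 447 CPM in mineral oil and 109.8, 109 and 97.6 CPM in untreated libraries (log2 fold change 2.30 ± 0.15 SE, adjusted p = 0.00115). Id3, its relative, measured 380.1, 244 and 215 CPM in mineral oil and 12.2, 10.03 and 23.6 CPM in untreated libraries (log2 fold change 4.25 ± 0.37 SE, adjusted p = 0.0022). Replicates lay close together for Smad6 and Id1, untreated library 3 included, which the choice by smallest p favours. The ligand gene Tgfb1 was lower, with 8.94, 12.7 and 12.5 CPM in mineral oil and 39.98, 37.5 and 19.4 CPM in untreated libraries (log2 fold change -1.45 ± 0.32 SE, adjusted p = 0.0214). This call was lost without untreated 1, untreated 2 or mineral oil 2. Of 22 collagen and matrix genes, 10 were higher (45.5%, beside 17% of all genes tested) and 0 lower (median 1.29), and 18 and 2 without the 2 libraries. The number higher ran from 3 (without untreated 1, untreated 2 or mineral oil 2) to 14 (without mineral oil 1) as single libraries were left out. They include basement membrane proteins. Hspg2, which encodes perlecan, measured 210.0, 420.1 and 473 CPM in mineral oil and 8.73, 10.5 and 41.05 CPM in untreated libraries (log2 fold change 4.48 ± 0.65 SE, adjusted p = 0.00799). Lamb3, a laminin chain of epithelia, measured 747, 866 and 759.7 CPM in mineral oil and 279, 279 and 362 CPM in untreated libraries (log2 fold change 1.37 ± 0.15 SE, adjusted p = 0.00358). Nid1, which links laminin and collagen IV, measured 21.9, 8.57 and 7.54 CPM in mineral oil and 0.172, 0.0862 and 0 CPM in untreated libraries (adjusted p = 0.00375). Col1a1, the fibrillar collagen of scar tissue, measured only 1.15, 2.15 and 2.29 CPM in mineral oil and 0.879, 0.755 and 0.766 CPM in untreated libraries and did not pass over 6 libraries (adjusted p = 0.0542; adjusted p = 0.00262 without the 2 libraries that stood apart).

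Several regulators of liver and foregut identity were higher in mineral oil organoids. Of 8 tested positional transcription factors, 5 were higher (62.5%, beside 17% of all genes tested) and 0 lower, and 5 and 1 without the 2 libraries that stood apart. The number higher was 2 (without untreated 1) to 5 (without untreated 3 or mineral oil 1) with single libraries left out. Gata6, a factor of endoderm, measured 109, 75.01 and 75.1 CPM in mineral oil and 15.4, 14.4 and 19.1 CPM in untreated libraries (log2 fold change 2.39 ± 0.19 SE, adjusted p = 0.00195). Foxa3, a pioneer factor of liver and gut, measured 12.03, 10.2 and 8.93 CPM in mineral oil and 0.0429, 0.0431 and 0.375 CPM in untreated libraries (log2 fold change 6.17 ± 0.68 SE, adjusted p = 0.0039). Onecut1, a factor of bile duct and hepatocyte development, measured 5.71, 2.93 and 5.61 CPM in mineral oil and 0.0429, 0 and 0.375 CPM in untreated libraries (adjusted p = 0.011, lost without untreated 1). Foxa3 and Onecut1 were nearly absent from untreated organoids. Hnf4a, the central factor of hepatocytes, measured 783, 188 and 180.4 CPM in mineral oil and 42.6, 45.8 and 109 CPM in untreated libraries (log2 fold change 2.32 ± 0.68 SE, adjusted p = 0.0447), and its call held in 2 of 6 fits with a library left out. Of 13 tested hepatocyte genes, 3 were higher (23.1%) and 2 lower (15.4%), near the 17% and 16.5% of all genes tested. Without the 2 libraries 9 were higher and 2 lower, beside 34.3% and 33.4% of all genes in that fit. Over the 6 fits that each lacked a library, the number higher lay between 0 (without untreated 1 or untreated 2) and 5 (without untreated 3). Apob, the protein of very low density lipoprotein, measured 2616, 707 and 683 CPM in mineral oil and 1.16, 3.08 and 64.8 CPM in untreated libraries (log2 fold change 7.44 ± 1.51 SE, adjusted p = 0.0179). Ttr, the carrier of thyroid hormone, measured 199.8, 104 and 131 CPM in mineral oil and 0.129, 0.302 and 10.5 CPM in untreated libraries (log2 fold change 7.36 ± 1.52 SE, adjusted p = 0.0185). Alb, which encodes albumin, went the other way with 0.0404, 1.52 and 1.44 CPM in mineral oil and 12.2, 10.6 and 32.4 CPM in untreated libraries (log2 fold change -4.82 ± 1.24 SE, adjusted p = 0.0321), so the hepatocyte genes did not move together. The calls of Apob, Ttr and Alb were lost in 3, 4 and 4 of the 6 fits with a library left out. Untreated library 3 held the most of all 3 genes within its set.

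Of 10 tested genes of bile acid synthesis and transport, 3 were higher (30%, beside 17% of all genes tested) and 0 lower. Without the 2 libraries that stood apart 7 of 8 were higher. Single libraries moved the number higher between 1 (without untreated 1, untreated 2 or mineral oil 2) and 4 (without mineral oil 1). Fgfr4, the receptor through which gut hormone represses bile acid synthesis, measured 3.96, 7.803 and 7.72 CPM in mineral oil and 0, 0 and 0.0341 CPM in untreated libraries (adjusted p = 0.00115). Abcc3, a pump of bile acids towards blood, measured 3057, 2480.1 and 2145 CPM in mineral oil and 1109.7, 1159.7 and 1415 CPM in untreated libraries (log2 fold change 1.05 ± 0.22 SE, adjusted p = 0.0185), a call lost without untreated 1, untreated 2 or mineral oil 2. Of 15 intestinal epithelium genes, 6 were higher (40%, beside 17% of all genes tested) and 0 lower, and 13 and 1 without the 2 libraries. Leaving out each library in turn gave 2 (without untreated 1 or untreated 2) to 7 (without untreated 3) higher members. Reg3b, an antimicrobial lectin, measured 94.96, 32.1 and 30.5 CPM in mineral oil and 0, 0 and 0.306 CPM in untreated libraries (adjusted p = 0.00358). Its relative Reg3g measured 49.8, 10.2 and 5.61 CPM in mineral oil and 0.0429, 0 and 0.102 CPM in untreated libraries (adjusted p = 0.00506). The brush border enzyme Sis measured 354, 21.1 and 2.74 CPM in mineral oil and 0, 0 and 0.102 CPM in untreated libraries (adjusted p = 0.0169, lost without untreated 1, untreated 2 or mineral oil 2), with most reads in mineral oil library 1. Cdx2, the master factor of intestine, measured 121, 17.6 and 12.3 CPM in mineral oil and 23.97, 21.3 and 25.7 CPM in untreated libraries and did not pass over 6 libraries (log2 fold change 0.34 ± 0.84 SE, adjusted p = 0.777); without mineral oil library 1 it was called lower in mineral oil organoids (log2 fold change -0.67, adjusted p = 0.0423).

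Of 16 genes in a list of p53 targets and Trp53, which encodes p53, 6 were lower (37.5%) and 1 higher (6.25%). Over all genes tested the shares were 16.5% and 17%. The member that was higher is Cdkn1a, described above. Trp53 itself was among the lower members, a call lost without untreated 1 or untreated 2. Without the 2 libraries that stood apart 8 were lower and 6 higher. The number lower ran from 2 (without untreated 2) to 8 (without mineral oil 1) as single libraries were left out. Aen, a nuclease of the p53 response, measured 50.1, 53.96 and 52.9 CPM in untreated and 12.1, 14.8 and 15.6 CPM in mineral oil libraries (log2 fold change -1.89 ± 0.13 SE, adjusted p = 0.00116). Bax, which opens mitochondria in apoptosis, measured 92.8, 84.3 and 106 CPM in untreated and 55.9, 54.96 and 47.5 CPM in mineral oil libraries (log2 fold change -0.84 ± 0.12 SE, adjusted p = 0.00772). Of 21 ATF4 targets of the integrated stress response, 8 were lower (38.1%) and 3 higher (14.3%), and 11 and 6 without the 2 libraries. The number lower was 5 (without untreated 2 or mineral oil 2) to 10 (without mineral oil 1) with single libraries left out. Stc2, a secreted glycoprotein of stressed cells, measured 60.2, 55.6 and 53.8 CPM in untreated and 4.48, 4.196 and 6.597 CPM in mineral oil libraries (log2 fold change -3.49 ± 0.20 SE, adjusted p = 0.000826). Mthfd2, a mitochondrial enzyme of folate metabolism, measured 29.4, 34.5 and 41.3 CPM in untreated and 9.19, 11.02 and 12.8 CPM in mineral oil libraries (log2 fold change -1.67 ± 0.19 SE, adjusted p = 0.00409). Of 21 NRF2 targets, 7 were higher (33.3%) and 0 lower, and 15 and 4 without the 2 libraries. Over the 6 fits that each lacked a library, the number higher lay between 3 (without untreated 1 or untreated 2) and 12 (without untreated 3). Gsr, the glutathione reductase, measured 147, 155 and 155 CPM in mineral oil and 80.6, 88.1 and 94.6 CPM in untreated libraries (log2 fold change 0.80 ± 0.089 SE, adjusted p = 0.004). The sets did not overlap at Aen, Bax, Stc2, Mthfd2 or Gsr, which were named for their small p, against 55.6% of all genes tested.

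Of 19 immediate early genes, which growth factors and handling switch on within minutes, 12 were higher and 0 lower (median 1.53), and 14 were higher without the 2 libraries that stood apart. Single libraries moved the number higher between 6 (without untreated 1) and 12 (without mineral oil 1). The phosphatase Dusp1 measured 476, 217 and 216 CPM in mineral oil and 19.3, 19.6 and 17.3 CPM in untreated libraries (log2 fold change 3.91 ± 0.32 SE, adjusted p = 0.00197). The factor Klf2, which responds to fluid flow in vessels, measured 59.8, 13.04 and 13.5 CPM in mineral oil and 0.772, 0.905 and 0.988 CPM in untreated libraries (log2 fold change 4.57 ± 0.62 SE, adjusted p = 0.00664). Mineral oil library 1 held the most of both. Among 18 genes of xenobiotic metabolism, 5 were higher (27.8%) and 2 lower (11.1%), beside 17% and 16.5% of all genes tested. Without the 2 libraries the counts were 11 and 5. Leaving out each library in turn gave 2 (without untreated 1, untreated 2, mineral oil 2 or mineral oil 3) to 8 (without untreated 3) higher members. Cyp2s1, a cytochrome P450, measured 1391, 1737 and 1421 CPM in mineral oil and 94.2, 100.9 and 136 CPM in untreated libraries (log2 fold change 3.79 ± 0.18 SE, adjusted p = 0.000543). The aldehyde dehydrogenase Aldh3a1 ran the other way and measured 1.05, 1.88 and 1.55 CPM in mineral oil and 27.4, 36.7 and 22.7 CPM in untreated libraries (log2 fold change -4.25 ± 0.30 SE, adjusted p = 0.00131). Of 18 clock genes, 6 were higher (33.3%) and 1 lower (5.56%) over 6 libraries, against 7 and 10 without the 2. Npas2, a partner of the clock factor BMAL1, measured 30.9, 14.7 and 15.03 CPM in mineral oil and 0.6003, 0.216 and 0.528 CPM in untreated libraries (log2 fold change 5.39 ± 0.48 SE, adjusted p = 0.00222). Neither the 13 mitochondrially encoded genes nor the 11 tested members of a list of RNAs without a poly(A) tail had a member that passed. The share of RNAs without a poly(A) tail varies with RNA selection, but that list also holds the protein-coding gene Lars2. Without the 2 libraries, 1 mitochondrially encoded gene was higher and 6 lower, and 5 and 5 of that list.

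**Figure D3:**
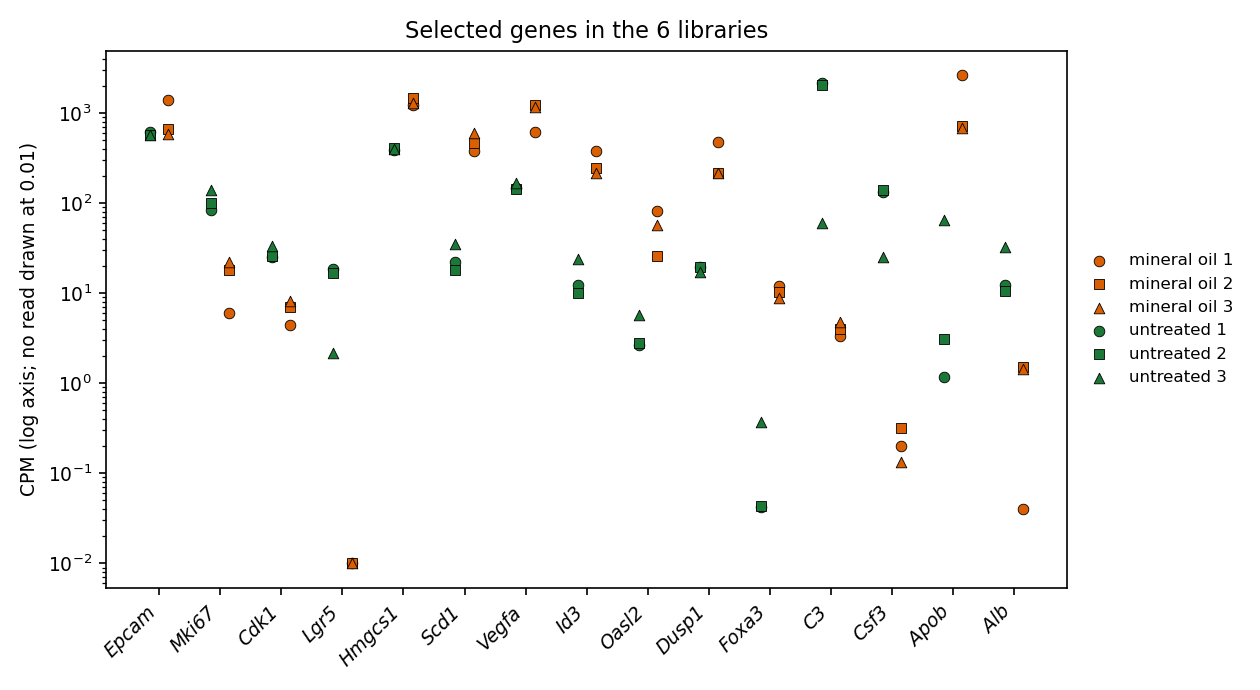
Levels of 15 genes in the 6 libraries, in CPM on a log axis, with orange points for mineral oil and green points for untreated libraries and the symbol shape for the replicate; genes without a read are drawn at the foot of the axis. Lgr5 has no read in the mineral oil libraries, and untreated library 3 (green triangle) lies towards the mineral oil points for C3, Csf3 and Apob.

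The largest rises in mineral oil organoids, among called genes of at least 2 CPM in the higher set without overlap, were En1, Nrn1, Pdpn, Nexmif, Gata5, Reg3b, Slc8a1, Cfi, Pde3b and Man1a. All of these kept their call with any 1 library left out, except Man1a, which lost it without untreated 1, untreated 2 or mineral oil 2. En1, a homeobox factor of the midbrain and limb, measured 117, 110.3 and 108 CPM in mineral oil libraries and 0, 0 and 1.99 CPM in untreated ones. Nrn1, a neuronal surface protein, measured 645, 299 and 290.0 CPM in mineral oil and 0.1501, 0.388 and 3.51 CPM in untreated libraries. Pdpn, or podoplanin, a mucin-like surface protein, had 15.5, 27.2 and 31.6 CPM against no read, at least 412-fold higher with a floor of 3 reads per library. Gata5, a factor of heart and gut endoderm, had 12.98, 31.9 and 27.9 CPM against no read, at least 404-fold higher. For Pdpn the CCl4 libraries of the same experiment also had no read, as had the TGF-β1 libraries, so among these 4 groups it was read only in the mineral oil libraries. Rasgrf1, an imprinted exchange factor, chosen after its values were seen, measured 83.7, 75.3 and 73.7 CPM in mineral oil and 0.214, 0.259 and 0.341 CPM in untreated libraries and 0 to 0.205 CPM in CCl4 organoids. The largest falls were Chi3l1, Cmtm7, Csf3, Pdzrn3, Cmtm8, Irx2, Kcnj15, Gm20554, Lgr5 and Fam83a. Chi3l1, a secreted chitinase-like protein, measured 249, 161 and 0.477 CPM in untreated and 0.0606, 0.0907 and 0 CPM in mineral oil libraries and had almost none in untreated library 3 either, and its call held in 1 of 6 fits with a library left out. The homeobox gene Irx2 measured 9.797, 8.95 and 8.44 CPM in untreated libraries and had no read in mineral oil or CCl4 libraries, at least 139-fold lower in the former. Cmtm7 and Cmtm8, membrane proteins of one family on chromosome 9, measured 16.5, 18.4 and 12.1 CPM and 11.8, 11.5 and 7.68 CPM in untreated libraries and at most 0.0202 and 0 CPM in mineral oil libraries.

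Some genes were read in one set only. Of 20054 genes with a read in any of the 6 libraries, 21 (0.105%) had at least 1 CPM in every mineral oil library and no read in an untreated one, and 8 (0.0399%) the reverse. The 21 were Pdpn, Gata5, Nexmif, Slc8a1, Cdh16, Armcx3, Tmem229a, Cachd1, Nrk, Slc34a2, Gnai1, Lpar1, Id4, Cnksr2, Ugt8a, Smim45, Nox4, Trpa1, Fgf15, Unc5cl and Rnls. The 8 were Lgr5, Cmtm8, Irx2, Gm20554, Prrg3, Chil4, Cd1d1 and Trmt9b. Of the 21, 16 were read in every CCl4 library, 1 had no read there, and 19 had no read in the TGF-β1 libraries. All 8 of the reverse kind were read in every TGF-β1 library, and 3 had no read in CCl4 libraries. Nexmif lies on chromosome X, 104076761 to 104201783, Slc8a1 on chromosome 17, 81373105 to 81738387, Cdh16, an adhesion protein of kidney tubules, on chromosome 8, 104601915 to 104624396, and Nox4, an oxidase that makes hydrogen peroxide, on chromosome 7, 87244430 to 87398710 (GRCm38). Cdh16 measured 3.54 to 30.3 CPM in mineral oil libraries and Nox4 1.07 to 4.31 CPM. Only 1 pair among the 29 genes lay within 100 kb: Irx2 (chromosome 13, 72624430 to 72634196) and the overlapping locus Gm20554 (chromosome 13, 72623466 to 72628564), whose reads may not be separable.

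The remaining organoids offered 6 libraries that the main comparison does not use. CCl4 organoids, from the experiment of the mineral oil libraries, were set against TGF-β1 organoids, from that of the untreated ones, a comparison added after the data were seen. It called 10776 of 14526 genes (74.2%), 5323 higher (36.6%) and 5453 lower (37.5%) in CCl4 organoids. Of the 2426 genes higher in mineral oil than in untreated organoids, 1783 (73.5%) were also higher in CCl4 than in TGF-β1 organoids, which is 33.5% of the second list. Of the 2353 lower genes, 1966 (83.6%) were also lower there, 36.1% of the second list. In opposite directions stood 182 genes (7.50% and 3.34% of the lists) that were higher and then lower, and 63 (2.68% and 1.18%) that were lower and then higher. Lgr5 and Oasl2 show that levels within the experiment also varied: Lgr5 was read in CCl4 but not in mineral oil libraries, and Oasl2 was higher in mineral oil than in all CCl4 libraries.

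**Figure D4:**
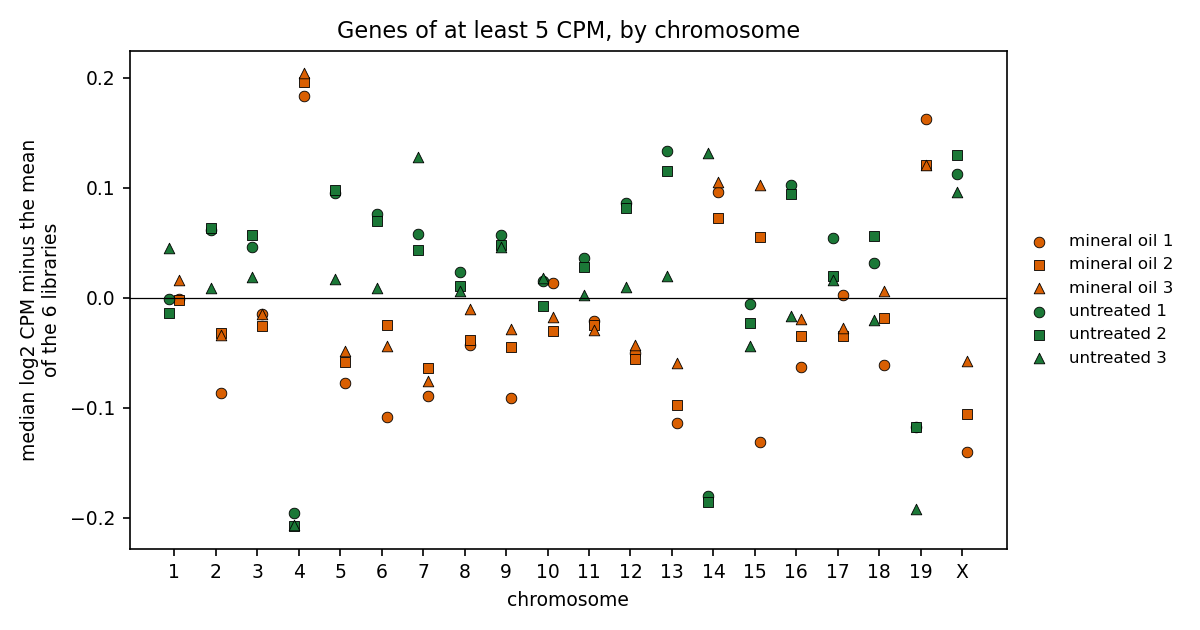
Median over genes of at least 5 CPM of the log2 CPM minus the mean of the 6 libraries, by chromosome (x axis), for each library as 1 point, with orange for mineral oil, green for untreated and the symbol shape for the replicate. On chromosome 4 the 3 mineral oil libraries lie near 0.2 and the 3 untreated libraries near -0.2.

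Differences were not evenly spread over chromosomes. Among genes of at least 5 CPM, the 661 on chromosome 4 had a median log2 fold change of 0.40 (0.40 also without the 2 libraries that stood apart). Of these genes 74.7% had a log2 fold change above 0, whether or not they were called, against 36.1% (X) to 69.9% (chromosome 19) on the other chromosomes. Relative to the mean of the 6 libraries, the chromosome's median was 0.18, 0.20 and 0.20 in the mineral oil and -0.20, -0.21 and -0.21 in the untreated libraries, so replicates differed little and the sets did not overlap. Chromosome 19, with 408 genes, had a median of 0.28, with 0.16, 0.12 and 0.12 against -0.12, -0.12 and -0.19. Lower medians were found on the X chromosome (-0.20, 296 genes) and on chromosome 13 (-0.19, 376 genes). Chromosome 14 set untreated libraries 1 and 2 (-0.18 and -0.19) apart from untreated library 3 (0.13), which lay with the mineral oil libraries (0.10, 0.07 and 0.11). On chromosome 15 mineral oil library 1 (-0.13) lay apart from mineral oil libraries 2 and 3 (0.06 and 0.10). The other 14 chromosomes had medians of -0.13 to -0.01. These are descriptions over genes of one chromosome, which are not replicates, and copy number was not measured.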

How the data were processed

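RNA of mouse organoids was sequenced from 1.2 µg of total RNA with an Illumina TruSeq mRNA kit, per the labels' protocols. Reads were placed on the mm10 build according to the submitters' processing notes. Aligner, counter and annotation: not given in the sources used here. Log2 CPM values were deposited by the authors. The values themselves, not a label, show the use of effective library sizes and a prior count of 2. They were turned back into whole reads, and 100% of values in the 18 organoid libraries came out within 0.05 of a whole number. Rows of the 2 tables were matched by gene ID (27178 genes).

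The 6 libraries were scaled together by trimmed means of M values. A gene was tested with 10 reads, in terms of the median library, in at least 3 libraries and 15 reads in all. The number of libraries asked for was that of the smallest set, so it was 2 in fits that left libraries out. Log2 CPM (prior count 2) was fitted with limma 3.58.1 in R 4.3.3, with a trended variance, and called at a Benjamini-Hochberg adjusted p under 0.05. All adjusted p-values in the text come from limma over all genes tested. Fold changes are on the log2(CPM + prior) scale, which understates changes of low genes. The fit was also run on simulated counts with the same dispersion at every gene and no library that stood apart. That run cannot show how the fit behaves with libraries as uneven as these. No count model was run on the recovered reads.

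The comparison was picked, and the 37 gene lists were chosen, with earlier results of these data known, while the libraries of each set follow from the labels. Named genes are fixed anchors, the 10 largest rises and falls of at least 2 CPM without overlap, and the 3 smallest p in each list with 3 or more calls (otherwise up to 2 of the highest level). Named after their values were seen were Axin2, Rnf43, Olfm4, Stat2, Gbp2, Fasn, C3, Cdkn2a, Trp53, Cdx2, Rasgrf1, Des, Cd68, Igf2, Peg3, Krt7, Eif2s3y, Uty, Kdm5d and, as genes read in one set only, the rest of the 29 listed there. Alternatives were other scalings, prior counts, filters, weights, a replicate block, all 18 libraries and leaving libraries out. Gene positions and promoter windows are from RefSeq GRCm38.p6, which is mm10, and 97.3% of tested genes were placed. One result is not reported here. Figures used Python 3.11.15 and matplotlib 3.10.9.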

Additional observations from a re-analysis of the deposited data

How the results depend on the processing

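Over 6 libraries, 2426 genes were higher and 2353 lower in mineral oil organoids. Counts stayed within 1.5 times of these under a prior count of 0.5, no filter, a mean of at least 1 CPM, voom and median-of-ratios scaling. Lower genes numbered 3567 with library totals alone and 3722 with the authors' effective library sizes. Array weights, whose iteration stopped before convergence, gave 5564 higher and 5828 lower, all 18 organoid libraries gave 3965 and 4010, and leaving out untreated library 3 and mineral oil library 1 together gave 4940 and 4821. With 1 library left out at a time, higher genes ranged from 712 to 3078 and lower genes from 317 to 2871. Deviations of libraries of the same number correlated at r = -0.14, 0.09 and -0.22, beside -0.18 to 0.21 for libraries of different number. With so few libraries this cannot show whether the numbers pair them. A replicate block gave 1325 higher and 900 lower. CCl4 against mineral oil gave 6245 calls, 3741 with only the 6 libraries of the 2 groups, and 4839 to 7895 with 1 left out. TGF-β1 against untreated gave 22 calls, 14 by library totals, 58 with only its 6 libraries, and 1 to 17 with 1 left out. CCl4 against TGF-β1, added after seeing the data, gave 10776 calls and 9858 to 11147 with 1 left out. Among 150 named genes and 2545 fits, 2278 kept direction and side of the threshold, 175 lost the call, 86 gained it and 6 changed sign with a call in one of the fits. The 6 are Igf2 (log2 fold change -0.62, but 1.37 with array weights and 1.58 without both libraries), Krt7 (-0.049, but 0.73 and 0.74) and Cdx2 (0.34, -0.67 to 0.98 with single libraries left out, the lowest without mineral oil library 1, and -0.61 without both). Of 110 named genes called, 66 stayed called without any 1 library. The cause of these changes was not tested. The spread between replicates was above counting error in every pair.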

Other observations

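Some genes had 1 library far from the rest of its set. Eif2s3y, a translation factor gene on the Y chromosome, measured 0, 88.8 and 87.1 CPM in the mineral oil libraries and 99.02, 97.96 and 87.2 CPM in the untreated libraries, so that mineral oil library 1 alone had no read. Other genes of the Y chromosome were read in that library: Ddx3y, an RNA helicase, measured 54.02, 59.996 and 61.7 CPM in the mineral oil libraries and 74.1, 78.2 and 67.3 CPM in the untreated libraries. Uty, a histone demethylase relative, measured 29.98, 33.05 and 29.8 CPM in the mineral oil libraries and 34.7, 35.9 and 42.8 CPM in the untreated libraries, and Kdm5d, another demethylase, 47.2, 61.2 and 55.6 CPM in the mineral oil libraries and 63.5, 66.8 and 72.1 CPM in the untreated libraries. Xist, the RNA of the inactive X chromosome, was at 0.257 CPM or less in all 6 libraries. Whether the library came from another animal was not tested. Peg3, an imprinted zinc finger gene, measured 4.401, 0.0454 and 0.112 CPM in the mineral oil libraries and 0.0429, 0 and 0 CPM in the untreated libraries, with nearly all reads in that same library. Igf2, the imprinted growth factor, measured 0.747, 3.04 and 2.72 CPM in the mineral oil libraries and 0.536, 1.62 and 25.1 CPM in the untreated libraries, highest in untreated library 3. Krt7, a keratin of bile ducts, measured 1288, 2687 and 2499 CPM in the mineral oil libraries and 1555, 1563 and 3939 CPM in the untreated libraries, and untreated library 3 held the most of its set.

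Other lists are given beside 17% higher and 16.5% lower over all genes tested, and their counts turned on single libraries. Of 18 chaperone genes of the endoplasmic reticulum, 5 were higher and 0 lower, and 10 and 4 without the 2 libraries that stood apart. The 5 became 1 with libraries scaled by their totals and 0 without untreated 2 or mineral oil 2. Of 14 heat shock genes, 3 were higher and 5 lower, and 4 and 6 without the 2 libraries, but 0 and 0 without untreated 1. Of 20 genes of fatty acid oxidation, 5 were higher and 2 lower, and 11 and 4 of 19 without the 2 libraries, but 0 and 0 without untreated 2. Of 16 YAP targets, 2 were higher and 0 lower, against 14 and 0 without the 2 libraries, and 2 to 7 were higher with single libraries left out. Of 12 genes of regenerating epithelium, 1 was higher and 0 lower, against 8 and 1, and 1 to 5 were higher with single libraries left out.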
